A study of Mus musculus with 27 samples.

Results

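Primitive endoderm and basement membrane genes were followed in mouse embryonic stem cells that had lost the writer or the readers of m6A, the N6-methylation of adenosine in mRNA. The list held 10 genes chosen by symbol: the transcription factors Gata4, Gata6, Sox17 and Sox7, the receptor Pdgfra, the adaptor Dab2, the matrix genes Lama1, Col4a1 and Col4a2, and Sparc. Of these, 9 had a row among the 14006 genes of the stem cell table, and Sox7 was not analysed here. The cells were of the KH2 line, of mixed C57BL/6 and 129/Sv background, grown in serum medium with LIF. The 12 poly(A) libraries formed 6 groups of 2: Ythdf1/2/3 triple knockout (triple KO), Mettl3 KO, Ythdf1 KO, Ythdf2 KO, Ythdf3 KO and wild type (WT). Mettl3 is the catalytic subunit of the m6A methyltransferase, and Ythdf1, Ythdf2 and Ythdf3 are cytoplasmic proteins that bind the mark. The labels do not give the deleted parts of these genes, the number of clones behind a line, or whether replicates A and B were separate cultures, so p-values measure only the spread between these samples. The comparisons asked how loss of each reader, of all readers and of the writer changed the genes against WT, and whether loss of all readers differed from loss of the writer.

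Primitive endoderm is the first extraembryonic lineage to split from the pluripotent cells of the inner cell mass. FGF signalling favours it through Gata6, which is followed by Pdgfra, Sox17, Gata4 and Sox7, while Nanog marks the pluripotent alternative. Its descendants, the parietal and visceral endoderm, lay down basement membrane, and parietal endoderm is known as a heavy producer of laminin-111, type IV collagen and Sparc. Dab2, an endocytic adaptor, is needed for the endoderm cells to sort to the surface. In serum and LIF, stem cell cultures are known to hold a small fraction of cells with endoderm gene expression beside the pluripotent majority.

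Total counts per library ran from 612598 to 1111764, and 1 read was worth 0.892 to 1.67 CPM (read counts scaled to library size after TMM normalization, the unit of all levels below). Of the 14006 genes, 11951 passed a filter of about 12.2 CPM in at least 2 libraries and were tested with edgeR's quasi-likelihood F test, and those with an adjusted p (Benjamini-Hochberg, over all of them) under 0.05 are described as called. Summed levels of 11 pluripotency markers ran from 3931 to 4523 CPM over the 12 libraries, and all 11 were measured. The Mettl3 transcript stood at 15.2 and 18.1 CPM in Mettl3 KO libraries, against 137 and 141 CPM in WT libraries. The Ythdf transcripts were not called lower in any line lacking them, which checks nothing while the deleted part is unknown. Replicates of all 6 groups differed by less than counting error, with a chi-square per gene of 0.700 to 0.840, so the adjusted p-values may be too small. In bulk RNA, fewer cells of a type and less RNA per cell cannot be told apart.

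Of the 9 measured genes 5 passed the filter: Lama1 and Sparc in 12 libraries, Col4a2 in 11, Gata4 in 5 from the triple KO, Ythdf2 KO and WT groups, and Col4a1 in 2, both triple KO. Col4a1 was thus tested only because it was high in the triple KO. Gata6, Sox17, Pdgfra and Dab2 had at most 14 counts in any library and are given from a fit without the filter. Per kilobase of annotated exon, Sparc stood highest in WT at 79.7 ± 1.59 CPM per kb (SD, n = 2), followed by Lama1 at 8.79 ± 0.852 and Gata4 at 4.47 ± 0.779 CPM per kb. Col4a2 (2.71 ± 0.211 CPM per kb) and Sox17 (2.16 ± 0.149 CPM per kb) came next. Gata6 at 0.966 ± 0.591, Col4a1 at 0.961 ± 0.00704 and Pdgfra at 0.627 ± 0.257 CPM per kb followed; Gata6 overlapped both of the others in WT libraries, while Col4a1 lay above Pdgfra. Dab2 was lowest at 0.366 ± 0.00268 CPM per kb.

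**Figure D1:**
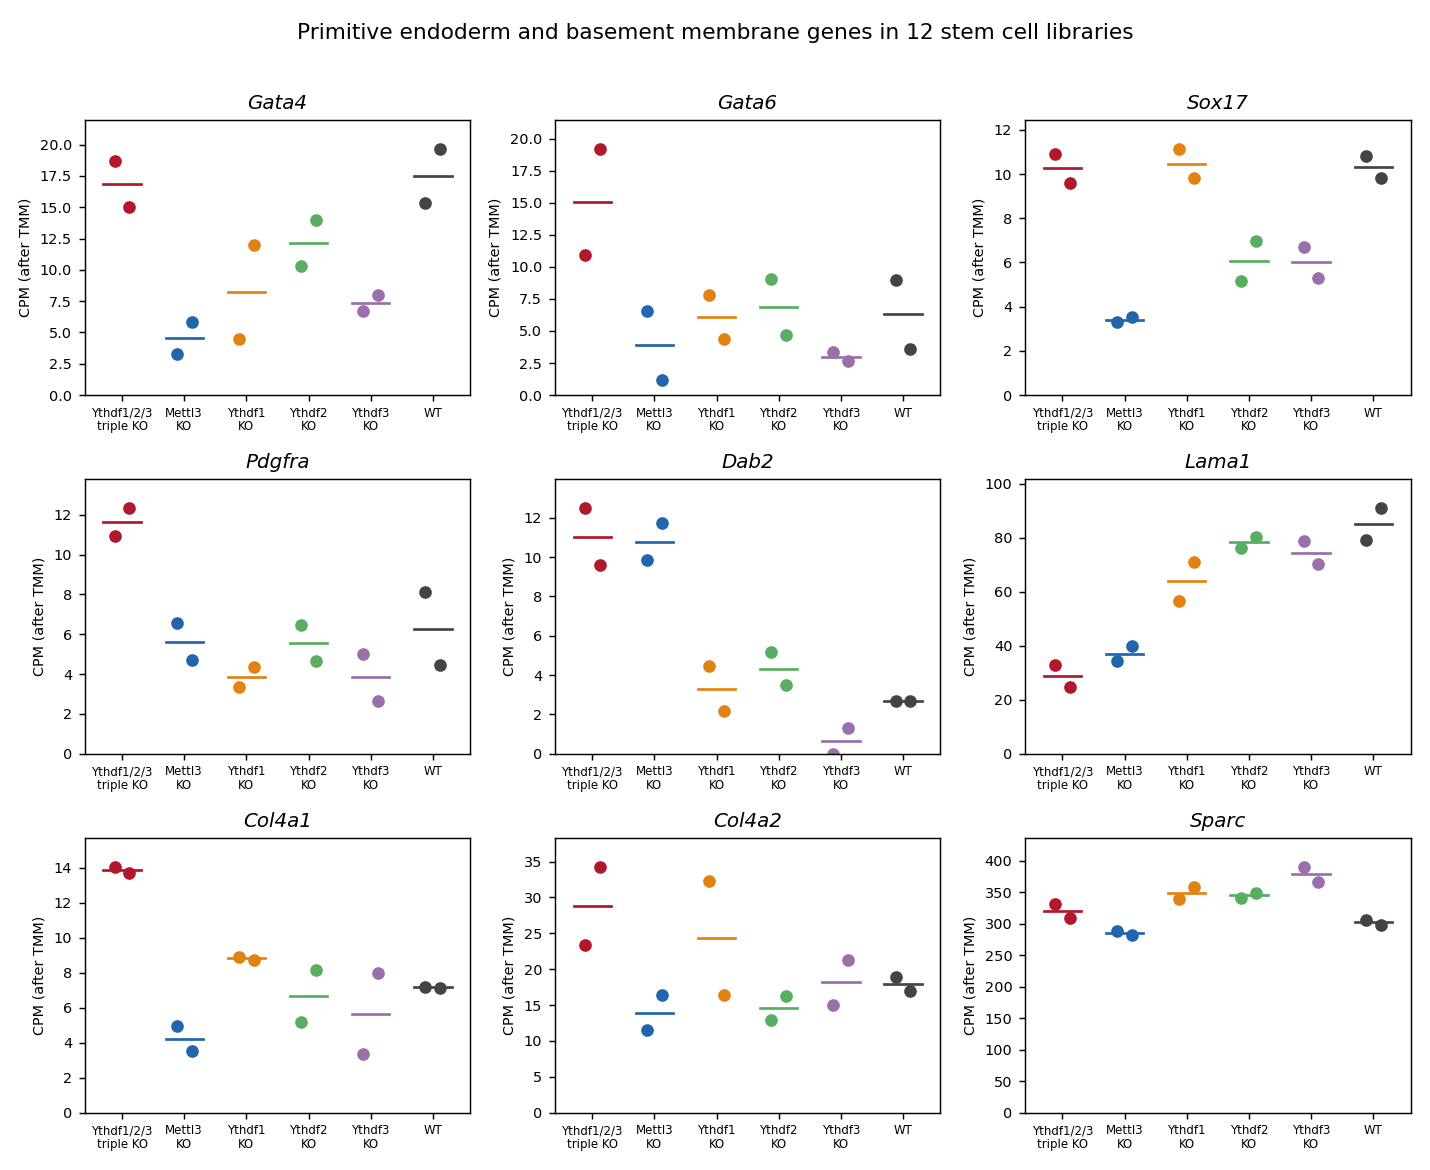
Level of each measured gene in CPM after TMM scaling (y axes, from 0, a scale for each panel) in the 12 libraries, by group on the x axis; points are libraries and lines group means of 2. Lama1 lies at 24.6 to 39.8 CPM in the triple KO and Mettl3 KO libraries, below the 8 libraries of the other groups.

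Gata4, a zinc-finger factor of the established endoderm, fell in the Mettl3 KO and was not called in the triple KO. Gata4 (chromosome 14, 63198922 to 63271692, minus strand, GRCm38, annotation GENCODE M21) had 18.7 and 15.1 CPM in triple KO, 3.29 and 5.86 CPM in Mettl3 KO, and 15.3 and 19.6 CPM in WT libraries. The Mettl3 KO libraries lay below all triple KO and WT libraries, while triple KO and WT overlapped. Gata4 differed by -1.84 ± 0.47 (log2 fold change ± SE) between Mettl3 KO and WT, 3.57-fold lower, adjusted p = 0.00201. Between triple KO and WT it differed by -0.06 ± 0.35 on the log2 scale, with a 95% interval of -0.74 to 0.63. The direct contrast of triple KO over Mettl3 KO was 1.78 ± 0.52, 3.43-fold, adjusted p = 0.0122.

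In single reader knockouts Gata4 was 4.44 and 12.02 CPM in Ythdf1 KO, 10.3 and 13.97 CPM in Ythdf2 KO and 6.69 and 7.97 CPM in Ythdf3 KO libraries, all below both WT libraries. None of these differences was called, at log2 values of -1.07 ± 0.39 (Ythdf1 KO, adjusted p = 0.151), -0.51 ± 0.36 (Ythdf2 KO, adjusted p = 0.677) and -1.22 ± 0.44 (Ythdf3 KO, adjusted p = 0.149). The Gata4 calls rest on few reads, 7 counts in the Mettl3 KO group and 39 in the WT group. By DESeq2 neither was past the threshold (adjusted p = 0.134 against WT and 0.241 for triple KO over Mettl3 KO). The triple KO over Mettl3 KO call was also lost without Mettl3 KO replicate A (adjusted p = 0.103), Mettl3 KO replicate B (0.05003) or triple KO replicate A (0.0976).

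Because these lines lack the writer or readers of m6A, the pentamer GGACT, the core of the best-known m6A consensus, was located in the transcripts. Gata4 carried 9 copies in its 3400-base longest coding transcript, and 2 of them lay within 200 bases of the stop codon, where m6A is known to be common. They are shown with 10 bases on either side and the pentamer in capitals; the first is coding sequence, at chr14:63200418-63200442, and the second lies in the 3' UTR, at chr14:63200325-63200349, both on the minus strand of GRCm38.
Gata4 before the stop codon: gctccaagcaGGACTcttggaacag
Gata4 after the stop codon: attcctgctcGGACTtgggacgtgg
Of 11048 tested genes with an annotated coding transcript 40.3% had at least 1 GGACT in the same window, searched on the transcript strand. Lama1 carried 18 copies in 9526 bases and none in that window, and Sparc carried 2 in 1366 bases and none in that window. Col4a2, Pdgfra and Sox17 had 1 copy each in the window, and Col4a1, Dab2 and Gata6 had none. Per kilobase of the transcripts of the 9 measured genes, the pentamer occurred from 0.618 times in Gata6 to 2.72 times in Col4a1, with 2.65 in Gata4, 2.17 in Col4a2, 1.92 in Sox17, 1.89 in Lama1, 1.72 in Dab2, 1.46 in Sparc and 1.17 in Pdgfra, beside a median of 1.06 over the tested genes. A match is a string of letters and not a measured methylation site.

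Gata6, the earliest factor of the lineage (chromosome 18, 11052064 to 11085635, plus strand, GRCm38), was counted 7 and 14 times in triple KO, 4 times and once in Mettl3 KO, and 10 and 4 times in WT libraries. In CPM this was 10.9 and 19.2 in triple KO, 6.57 and 1.17 in Mettl3 KO, and 9.01 and 3.57 in WT libraries. Both triple KO libraries lay above all others, and the Mettl3 KO and WT libraries overlapped. Without the filter Gata6 differed by 1.27 ± 0.49 between triple KO and WT (log2, adjusted p = 0.0497), a call that was lost when the quasi-dispersion was held at 1 or more (0.0514). Over Mettl3 KO, triple KO gave 2.11 ± 0.63, adjusted p = 0.0107, with a count ratio of 4.48 and a 95% counting interval of 1.64 to 15.2. By DESeq2 the adjusted p was 0.502 for triple KO over WT and 0.300 for triple KO over Mettl3 KO. Without triple KO replicate B the triple KO over WT difference was 0.79 (adjusted p = 0.514) and that over Mettl3 KO 1.64 (0.235); triple KO over Mettl3 KO was 1.19 (0.322) without Mettl3 KO replicate B, and triple KO over WT was 0.76 (0.367) without WT replicate B.

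Sox17, an HMG-box factor of endoderm (chromosome 1, 4490931 to 4497354, minus strand), shared the direction of Gata4. It had 10.9 and 9.58 CPM in triple KO, 3.29 and 3.51 CPM in Mettl3 KO, and 10.8 and 9.81 CPM in WT libraries, from 14, 5 and 23 counts in those groups. The Mettl3 KO libraries were the lowest of the 12, and triple KO and WT overlapped. Mettl3 KO over WT was -1.55 ± 0.59 without the filter (adjusted p = 0.0474), past the threshold neither with the quasi-dispersion held at 1 or more (0.0540), nor by DESeq2 (0.340), nor with any 1 of the 4 libraries left out (0.0882 to 0.215). The triple KO was 1.54 ± 0.65 over Mettl3 KO and was not called (adjusted p = 0.108). Sox17 shares 16.8% of its exon bases with Gm37587 on the other strand, and whether the counting used strand is not given in the sources used here.

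Pdgfra, the PDGF receptor alpha that marks primitive endoderm (chromosome 5, 75152292 to 75198215, plus strand), had 10.9 and 12.3 CPM in triple KO, 6.57 and 4.69 CPM in Mettl3 KO, and 8.11 and 4.46 CPM in WT libraries. Both triple KO libraries lay above all other libraries. The difference was not called against WT (0.88 ± 0.52 without the filter, adjusted p = 0.222) or against Mettl3 KO (1.07 ± 0.59, adjusted p = 0.222). In the single knockouts Pdgfra lay between 2.66 and 6.46 CPM.

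Dab2 (chromosome 15, 6299788 to 6440712, plus strand) rose in both the triple KO and the Mettl3 KO in the fit without the filter. It had 12.5 and 9.58 CPM in triple KO, 9.86 and 11.7 CPM in Mettl3 KO, and 2.70 and 2.67 CPM in WT libraries, from 15, 16 and 6 counts. The triple KO and Mettl3 KO libraries lay above WT and overlapped each other. The log2 differences from WT were 1.96 ± 0.64 for triple KO (adjusted p = 0.0177) and 1.97 ± 0.63 for Mettl3 KO (adjusted p = 0.0125), with count ratios of 4.07 (95% counting interval 1.49 to 12.8) and 4.07 (1.51 to 12.7). The contrast of triple KO over Mettl3 KO was -0.00 ± 0.52. DESeq2 gave adjusted p = 0.283 for triple KO over WT and 0.229 for Mettl3 KO over WT; the triple KO call was lost without any 1 of the 4 libraries (0.0526 to 0.146), and the Mettl3 KO call without Mettl3 KO replicate B (0.137), WT replicate A (0.0574) or WT replicate B (0.0598). In single knockouts Dab2 stood at 4.44 and 2.19 CPM in Ythdf1 KO and 5.17 and 3.49 CPM in Ythdf2 KO libraries. Ythdf3 KO libraries held 0 counts and 1 count, against 3 and 3 counts in WT libraries, a ratio of 0.276 with a counting interval of 0.00599 to 2.27.

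Among matrix genes Lama1 was lower in both the triple KO and the Mettl3 KO, with the smallest p-values of the list. It encodes the alpha 1 chain of laminin-111, the trimer that starts basement membrane assembly, from 63 exons on chromosome 17 (67697259 to 67822647, plus strand, GRCm38). Lama1 had 32.8 and 24.6 CPM in triple KO and 34.5 and 39.8 CPM in Mettl3 KO libraries, against 79.3 and 90.9 CPM in WT libraries. The 4 libraries of these 2 lines lay far below WT and below every single knockout. Lama1 fell by 1.58 ± 0.19 on the log2 scale in the triple KO, 2.98-fold lower, adjusted p = 2.58e-10. In the Mettl3 KO it fell by 1.18 ± 0.17, 2.26-fold lower, adjusted p = 2.72e-07. Both falls were also past the threshold by DESeq2 (adjusted p = 0.000308 and 0.00544). The authors' deposited values come from DESeq2 on the same libraries and are thus not a separate check. They give WT over triple KO as 1.58 (adjusted p = 0.000316) and Mettl3 KO over WT as -1.18 (adjusted p = 0.00569). Leaving out any library kept the triple KO value between -1.78 and -1.38 and the Mettl3 KO value between -1.31 and -1.07, all called.

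Single reader losses left Lama1 nearer to WT. It stood at 56.7 and 71.1 CPM in Ythdf1 KO, 76.3 and 80.3 CPM in Ythdf2 KO, and 78.6 and 70.4 CPM in Ythdf3 KO libraries. Ythdf1 KO and Ythdf3 KO libraries lay below both WT libraries, and Ythdf2 KO overlapped WT. The differences from WT were -0.41 (95% interval -0.68 to -0.14, adjusted p = 0.182) for Ythdf1 KO, -0.12 (-0.38 to 0.15, adjusted p = 0.856) for Ythdf2 KO and -0.20 (-0.48 to 0.08, adjusted p = 0.671) for Ythdf3 KO. Triple KO over Mettl3 KO was -0.40 (-0.88 to 0.08, adjusted p = 0.388).

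The partner chains of Lama1 in laminin-111, Lamb1 and Lamc1, were picked out after their values were seen and did not pass the test in either line. Lamb1 had 16.1 ± 0.800 CPM per kb in triple KO, 15.3 ± 2.91 in Mettl3 KO and 15.4 ± 0.368 in WT libraries, and Lamc1 had 18.2 ± 1.81, 17.6 ± 0.901 and 20.4 ± 1.23 CPM per kb in the same order (SD, n = 2). Lama1 had 2.96 ± 0.593 CPM per kb in triple KO, 3.84 ± 0.390 in Mettl3 KO and 8.79 ± 0.852 in WT libraries. In Ythdf1 KO over WT Lamb1 was called higher (0.39 ± 0.09, adjusted p = 0.0156). The alpha 1 chain was the scarcest of the 3 transcripts per length in all of these groups.

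**Figure D2:**
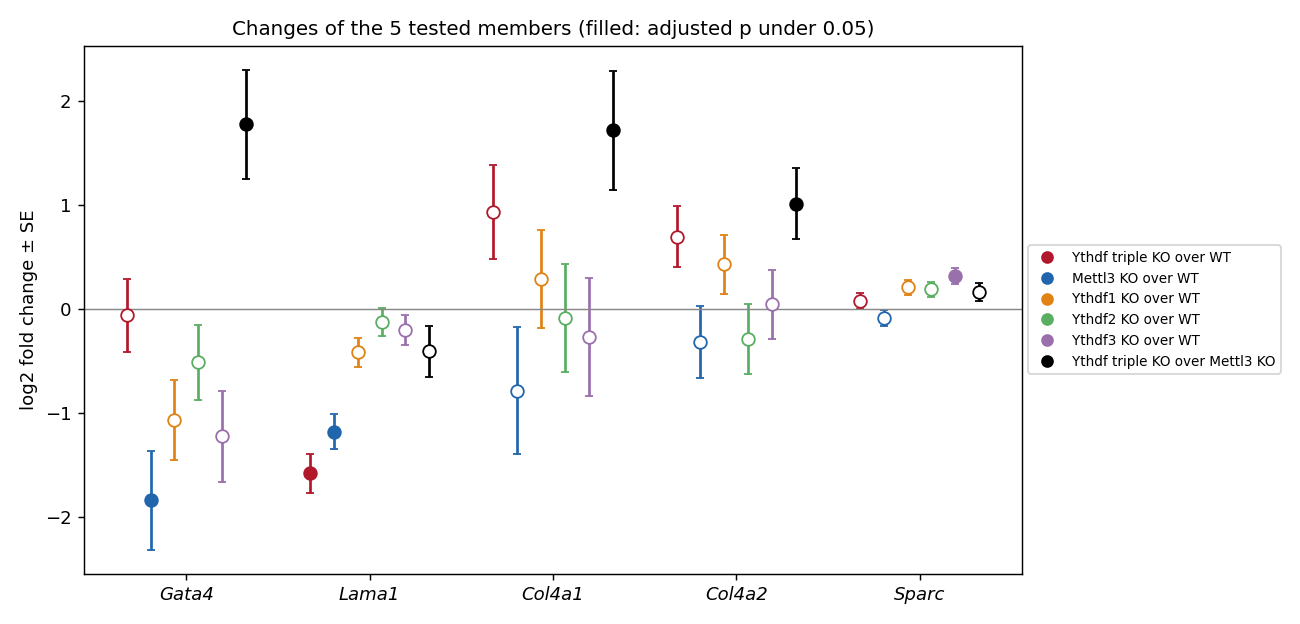
Log2 fold change ± SE (y axis) of the 5 genes that passed the low-count filter (x axis) in 6 comparisons, from 1 edgeR fit to 12 libraries; filled points were called. Lama1 was called lower in triple KO (-1.58) and Mettl3 KO (-1.18) over WT, and Gata4, Col4a1 and Col4a2 were called higher in triple KO over Mettl3 KO (1.78, 1.72 and 1.01), Col4a1 having passed the filter only through the triple KO.

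Col4a1 and Col4a2 encode the paired chains of the common type IV collagen network. Col4a2 was called higher in triple KO than in Mettl3 KO cells by edgeR and not by DESeq2. The values of Col4a1 are given as a description, since it was tested only through its level in the triple KO. The genes lie head to head on chromosome 8 of GRCm38, Col4a1 on the minus strand (11198423 to 11312826) and Col4a2 on the plus strand (11312805 to 11449287), so that their annotated starts overlap by 22 bases. The RefSeq promoter windows of both (GRCm38.p6, 250 bases before to 50 after each start) share 78 bases. The stretch shown, chr8:11312753-11312782 on the plus strand, lies just before the Col4a2 start and shows its CCAAT box, 32 bases ahead of that start, and a GC box further ahead, both in capitals. It belongs to the Col4a2 window, and both motifs begin before the shared bases, which run from 11312777 to 11312854.
Col4a2 promoter stretch: cgcgCCGCCCgaggagctccCCAATttgtt
On either strand, CCAAT occurred in 37.4% and GGGCGG in 35.7% of 32851 promoter windows of the same length. The Col4a2 window held 1 CCAAT and 3 GGGCGG and the Col4a1 window 1 of each, and in the stretch shown the motifs lie apart. RefSeq windows were also matched for Pdgfra, Sparc and Dab2, and none of these held CCAAT or GGGCGG. The GATA-type motif AGATAA, present in 11.2% of the windows, occurred once in 1 of the Dab2 windows and in none of the Col4a1, Col4a2, Pdgfra and Sparc windows.

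Col4a1 had 14.04 and 13.7 CPM in triple KO libraries, against 4.93 and 3.51 CPM in Mettl3 KO libraries, from 19 and 6 counts. WT libraries had 7.21 and 7.13 CPM, between those lines. The fit gave 1.72 ± 0.57 (log2) for triple KO over Mettl3 KO, 3.29-fold, adjusted p = 0.0299. Having passed the filter only through the triple KO, the gene was tested because of its level there, and this p supports nothing. The fit without the filter gave 1.72 ± 0.58, adjusted p = 0.0324. Against WT the triple KO differed by 0.94 ± 0.45 (adjusted p = 0.145) and the Mettl3 KO by -0.78 ± 0.61 (adjusted p = 0.386), and neither was called. Single knockouts ranged from 3.35 to 8.89 CPM, with no call.

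Col4a2 had 23.4 and 34.2 CPM in triple KO libraries, against 11.5 and 16.4 CPM in Mettl3 KO libraries and 18.9 and 16.9 CPM in WT libraries. The triple KO libraries lay above both other groups. Triple KO over Mettl3 KO was 1.01 ± 0.34, 2.02-fold, adjusted p = 0.0396; it was at 0.05002 with the quasi-dispersion held at 1 or more and not called. Over WT the triple KO was at 0.70 ± 0.29 (adjusted p = 0.0968) and the Mettl3 KO at -0.32 ± 0.35 (adjusted p = 0.572). The Ythdf1 KO libraries stood apart from each other, at 32.2 and 16.4 CPM. Neither collagen gene was past the threshold by DESeq2 for triple KO over Mettl3 KO (adjusted p = 0.358 for Col4a1 and 0.411 for Col4a2). Without any 1 of the 4 libraries the Col4a1 call was lost (0.0682 to 0.242), as was that of Col4a2 without Mettl3 KO replicate A (0.209), Mettl3 KO replicate B (0.0826) or triple KO replicate B (0.417). Across the 12 libraries the log2 levels of the pair had a Pearson r of 0.73, given as a description of libraries that share their groups and depth.

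Sparc, a collagen-binding matrix glycoprotein (chromosome 11, 55394500 to 55423183, minus strand), was the most abundant gene of the list. It had 331 and 309 CPM in triple KO, 289 and 282 CPM in Mettl3 KO, and 306 and 298 CPM in WT libraries. Neither line was called against WT, at 0.08 (95% interval -0.07 to 0.23) for triple KO and -0.08 (-0.24 to 0.07) for Mettl3 KO. Ythdf3 KO libraries had 390 and 367 CPM, and both lay above all others. The rise in Ythdf3 KO over WT was 0.32 ± 0.07, 1.25-fold, adjusted p = 0.0119. It was not past the threshold by DESeq2 (adjusted p = 1, unadjusted p = 0.0150) or with any 1 of the 4 libraries left out (0.0562 to 0.220). Ythdf1 KO (340 and 359 CPM) and Ythdf2 KO (341 and 349 CPM) also lay above WT and were not called (adjusted p = 0.139 and 0.268).

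Col4a1, Col4a2 and Sparc are also known genes of fibroblasts, and 14 feeder markers were summed beside them, of which 8 were measured and none was at 0 in any group. Their sum was 243 to 271 CPM in triple KO, 159 to 178 CPM in Mettl3 KO and 254 to 259 CPM in WT libraries. The single knockouts also lay below WT, at 229 to 253 (Ythdf1 KO), 176 to 183 (Ythdf2 KO) and 194 to 218 CPM (Ythdf3 KO). Vim alone stood at 70.6 and 73.8 CPM in Mettl3 KO, against 157 and 163 CPM in WT libraries. The 5 tested feeder markers split in Mettl3 KO over WT. Vim (-1.14 ± 0.12, adjusted p = 2.10e-12) and Col1a1 (-0.88 ± 0.22, adjusted p = 0.00404) were called lower. Thy1 (2.02 ± 0.43, adjusted p = 0.000133) and Twist1 (0.87 ± 0.27, adjusted p = 0.0201) were called higher. Thy1 was also higher in triple KO over WT (2.12 ± 0.43, adjusted p = 8.32e-05). Col1a1 (1.16 ± 0.23, adjusted p = 0.000347) and Vim (0.86 ± 0.14, adjusted p = 1.55e-05) were higher in triple KO than in Mettl3 KO. The sum of 10 markers of the 2-cell embryo was 1338 to 1347 CPM in triple KO, 78.8 to 97.2 CPM in Mettl3 KO and 65.1 to 75.7 CPM in WT libraries. It was 720 to 771 CPM in Ythdf1 KO, 144 to 158 CPM in Ythdf2 KO and 328 to 361 CPM in Ythdf3 KO libraries. Summed trophoblast markers ran from 222 to 225 CPM in triple KO, 294 to 305 CPM in Mettl3 KO and 227 to 241 CPM in WT libraries. Of 8 listed, 6 were measured and tested, and their directions split. In each line 2 were called higher and 2 lower, beside 25.1% and 30.4% of all tested genes called in either direction. Cdx2 was among the lower ones in triple KO (-2.35 ± 0.52, adjusted p = 0.000314) and Mettl3 KO (-4.54 ± 0.73, adjusted p = 6.27e-07). Among the higher ones were Ascl2 in triple KO (1.40 ± 0.24, adjusted p = 1.65e-05) and Tfap2c in Mettl3 KO (1.18 ± 0.12, adjusted p = 8.99e-13). Mesoderm and definitive endoderm markers, 6 of 8 measured, summed to 122 to 133 CPM in triple KO, 92.0 to 109 CPM in Mettl3 KO and 152 to 168 CPM in WT libraries. Of 5 tested, 1 was called higher (Gsc) and 3 lower in each line, beside those same shares. Eomes is in both this list and the trophoblast list. The part of other cell types or states in the changes above was not tested.

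Counted over the list, the triple KO had 1 of 5 tested genes called, Lama1, beside 25.1% of all tested genes (11.8% lower). The Mettl3 KO had 2 of 5 called, both lower, beside 30.4% (15.1% lower). Triple KO over Mettl3 KO had 3 of 5 called, all higher, Col4a1 among them, beside 19% (10.5% higher). Ythdf3 KO had 1 of 5, Sparc, beside 2.84% (1.74% higher). Ythdf1 KO and Ythdf2 KO had 0 of 5 called by edgeR, beside 3.45% and 1.91%, with 3 and 1 of the 5 at an unadjusted p under 0.05.

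Without the filter, calls among the 9 genes numbered 3 in triple KO, 4 in Mettl3 KO, 0 in Ythdf1 KO, 0 in Ythdf2 KO, 1 in Ythdf3 KO and 4 in triple KO over Mettl3 KO, beside 23%, 28%, 2.92%, 1.66%, 2.31% and 17.4% of all 14006 genes. DESeq2 called 1 of 9 in triple KO and 1 of 9 in Mettl3 KO, Lama1 in both, beside 4.98% and 8.59%. It called 0 of 9 in Ythdf1 KO, Ythdf2 KO, Ythdf3 KO and triple KO over Mettl3 KO, beside 0.403%, 0.0714%, 0.178% and 4.46%. At an unadjusted p under 0.05 DESeq2 had 0, 0, 1 and 2 of the 9 in those 4 comparisons. Median log2 changes of the 5 tested genes were 0.08 in triple KO and -0.78 in Mettl3 KO, beside -0.0040 and -0.00085 over all tested genes. Col4a1 enters these medians only through its level in the triple KO. With 5 members, these shares are not a result about the list.

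Several other basement membrane components, among them Lama3, Lama5 and Hspg2, were lower in both lines. Of 23 listed, 16 were measured and 13 tested; triple KO had 0 called higher and 5 lower, and Mettl3 KO 1 higher and 6 lower, with medians of -0.26 and -0.21, beside 11.8% of all tested genes called lower in triple KO and 15.1% in Mettl3 KO. Lama5, a laminin alpha chain of many epithelia, fell in triple KO (-0.86 ± 0.12, adjusted p = 5.15e-07) and in Mettl3 KO (-0.54 ± 0.12, adjusted p = 0.00105). Lama3, the alpha chain of laminin-332, fell in triple KO (-0.55 ± 0.12, adjusted p = 0.00133) and further in Mettl3 KO (-1.74 ± 0.15, adjusted p = 3.73e-16), and triple KO over Mettl3 KO was 1.19 ± 0.18 (adjusted p = 6.04e-07). Hspg2, the heparan sulfate proteoglycan perlecan, and Fn1, fibronectin, fell in triple KO by 0.63 ± 0.12 and 0.40 ± 0.07 on the log2 scale (adjusted p = 0.000185 and 2.36e-05). Hspg2 also fell in Mettl3 KO (-0.47 ± 0.11, adjusted p = 0.00371), where Fn1 was not called (-0.15 ± 0.07, adjusted p = 0.126).

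Col18a1, a basement membrane collagen, had 47.9 and 63.9 CPM in triple KO, 11.5 and 15.2 CPM in Mettl3 KO, and 74.0 and 80.2 CPM in WT libraries. It fell by 2.48 ± 0.22 on the log2 scale in Mettl3 KO (adjusted p = 5.11e-15), was not called in triple KO (-0.47 ± 0.16, adjusted p = 0.0560), and was higher in triple KO than in Mettl3 KO (2.01 ± 0.26, adjusted p = 3.03e-08). Of the 13 components, 2 were called higher and 2 lower in triple KO over Mettl3 KO (median 0.05). Of all tested genes 19% were called in either direction there. Nid1, nidogen, which links laminin to collagen IV, rose in Mettl3 KO (0.36 ± 0.07, adjusted p = 1.64e-05), in Ythdf1 KO (0.23 ± 0.07, adjusted p = 0.0429) and in Ythdf3 KO (0.30 ± 0.07, adjusted p = 0.00724). In the single knockouts 2 of the 13 were called higher and 1 lower in Ythdf1 KO, 0 and 1 in Ythdf2 KO, and 1 and 1 in Ythdf3 KO. Of all tested genes 3.45%, 1.91% and 2.84% were called in either direction in those comparisons. Lama5 was lower in Ythdf1 KO (-0.51 ± 0.11, adjusted p = 0.00551) and Ythdf3 KO (-0.46 ± 0.12, adjusted p = 0.0456), and Lama3 in Ythdf2 KO (-0.55 ± 0.11, adjusted p = 0.00676).

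**Figure D3:**
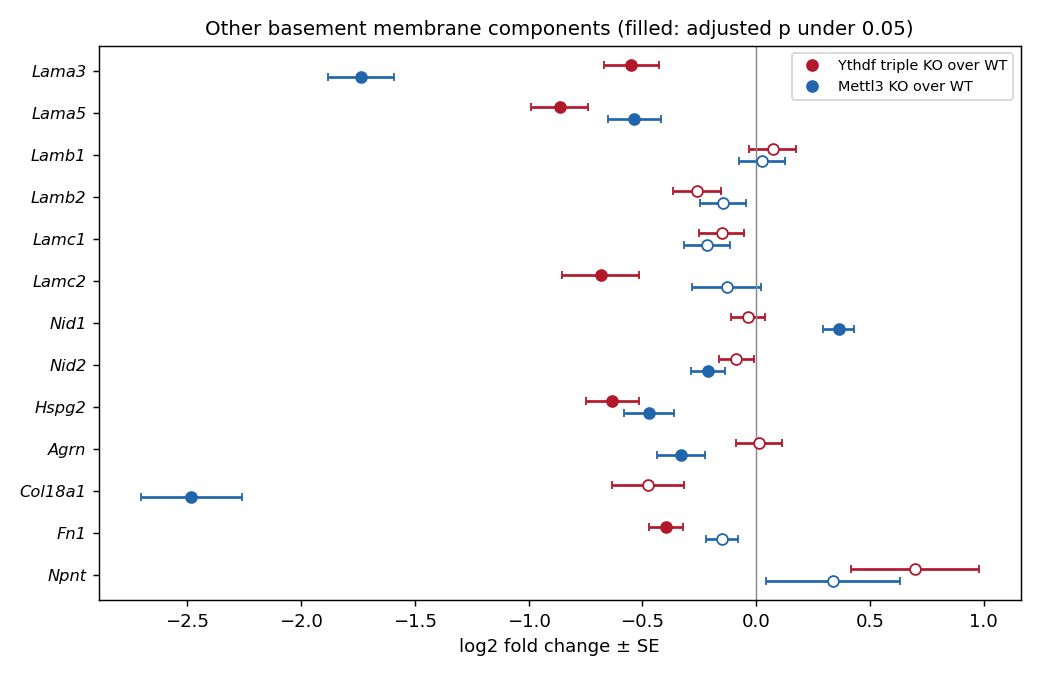
Log2 fold change ± SE (x axis) of 13 tested basement membrane components other than the listed genes (y axis), for triple KO over WT and Mettl3 KO over WT; filled points were called. Lama3, Lama5 and Hspg2 were called lower in both lines, Col18a1 (-2.48) was called in Mettl3 KO alone, and Lamb1 and Lamc1 were called in neither.

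Other genes of visceral and parietal endoderm split in direction. Of 22 listed, 12 were measured and 8 tested. In triple KO 3 were called higher and 2 lower (median 0.22), and in Mettl3 KO 2 higher and 3 lower (median -0.22). Of all tested genes 25.1% and 30.4% were called in either direction. Ythdf1 KO, Ythdf2 KO and Ythdf3 KO had 0 called by edgeR, beside 3.45%, 1.91% and 2.84%. Apoe, a lipoprotein of visceral endoderm and of many other cells, fell to 388 and 404 CPM in triple KO and 610 and 636 CPM in Mettl3 KO, against 769 and 779 CPM in WT libraries, log2 changes of -0.97 ± 0.07 and -0.32 ± 0.06 (adjusted p = 1.02e-19 and 1.36e-05). Fst, the activin-binding protein follistatin, fell as well, by 1.74 ± 0.22 and 0.92 ± 0.18 on the log2 scale (adjusted p = 2.53e-09 and 0.000303). Cited1, a transcriptional coactivator, moved in opposite directions: it had 64.3 and 79.5 CPM in triple KO, 4.93 and 10.5 CPM in Mettl3 KO, and 19.8 and 23.2 CPM in WT libraries. Its log2 changes from WT were 1.72 ± 0.21 in triple KO and -1.37 ± 0.37 in Mettl3 KO (adjusted p = 7.86e-10 and 0.00610), and triple KO over Mettl3 KO was 3.10 ± 0.30 (adjusted p = 1.76e-13). In that last contrast 2 of the 8 were called higher and 2 lower, beside 19% of all tested genes called in either direction. Krt19, a simple-epithelial keratin, rose in triple KO (1.48 ± 0.33, adjusted p = 0.000421), and Srgn, the proteoglycan serglycin, in Mettl3 KO (1.06 ± 0.23, adjusted p = 0.000292).

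Cell receptors listed for the basement membrane, with the fibrillar collagen receptor Ddr2 among them, had 2 of 9 tested called higher and 2 lower in triple KO. The counts were the same in Mettl3 KO, beside 25.1% and 30.4% of all tested genes called in either direction. Ddr2, a receptor tyrosine kinase for fibrillar collagen, had 32.8 and 34.2 CPM in triple KO, 3.29 and 16.4 CPM in Mettl3 KO, and 0.901 and 3.57 CPM in WT libraries. It rose by 3.82 ± 0.48 in triple KO and 2.21 ± 0.63 in Mettl3 KO (log2, adjusted p = 1.21e-09 and 0.00469), and the Mettl3 KO libraries overlapped WT. Itgb4, the beta 4 integrin that binds laminin, fell by 1.40 ± 0.25 and 1.15 ± 0.23 on the log2 scale (adjusted p = 1.94e-05 and 0.000166). Bcam, a receptor of laminin alpha 5, fell by 0.46 ± 0.11 in triple KO and 1.01 ± 0.12 in Mettl3 KO (adjusted p = 0.00361 and 1.51e-10). Dag1, dystroglycan, rose in triple KO (0.65 ± 0.12, adjusted p = 3.32e-05), and Itgb1, the common beta 1 integrin, in Mettl3 KO (0.65 ± 0.13, adjusted p = 0.000629).

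**Figure D4:**
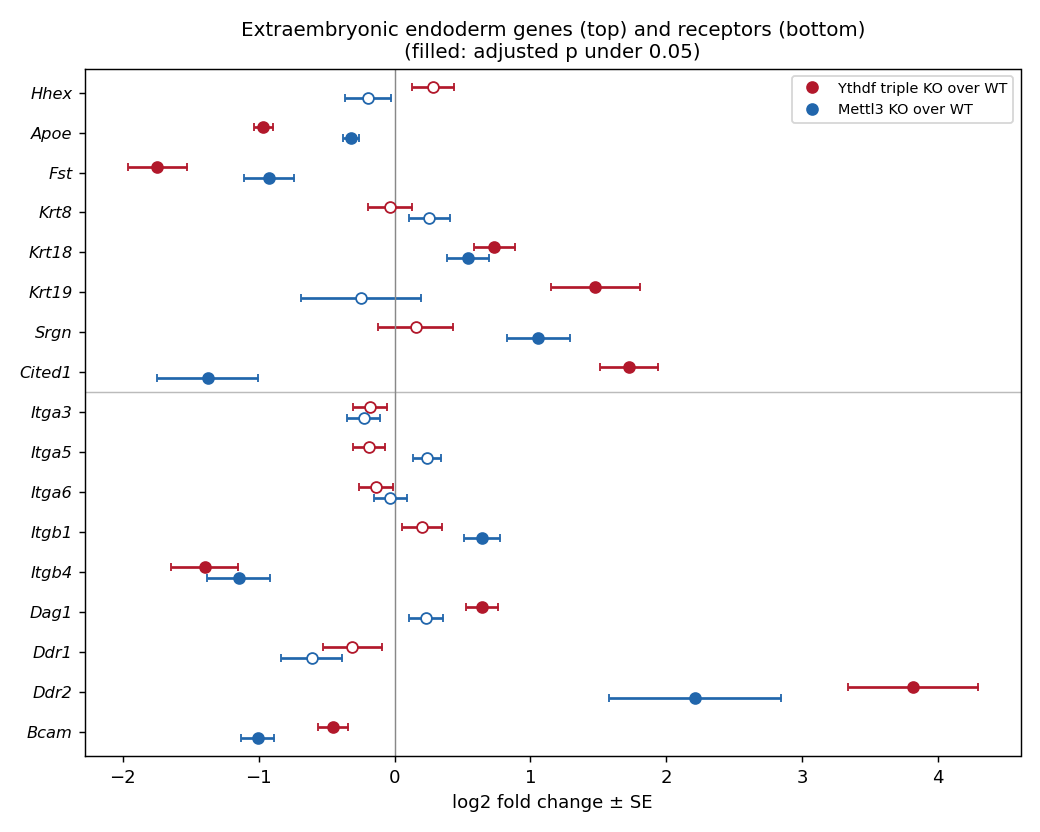
Log2 fold change ± SE (x axis) of 8 tested genes of visceral and parietal endoderm (above the line) and 9 receptors (below it) for triple KO over WT and Mettl3 KO over WT; filled points were called. Cited1 lies on opposite sides of 0 in the 2 lines (1.72 and -1.37), and Ddr2 has the highest values in both (3.82 and 2.21).

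Of 10 tested genes that process and secrete type IV collagen, 1 was called higher and 1 lower in triple KO and again in Mettl3 KO, beside 25.1% and 30.4% of all tested genes called in either direction. P4ha2, a collagen prolyl hydroxylase subunit, rose in triple KO (1.67 ± 0.26, adjusted p = 4.18e-07), and its paralog P4ha1 fell (-1.46 ± 0.39, adjusted p = 0.00502). In Mettl3 KO Plod2, a lysyl hydroxylase, fell (-0.77 ± 0.16, adjusted p = 0.000683) and Serpinh1, the collagen chaperone HSP47, rose (0.39 ± 0.11, adjusted p = 0.0170). Upstream, 14 tested FGF and PDGF signalling genes had 1 higher and 1 lower call in triple KO and 2 and 2 in Mettl3 KO, beside the same 25.1% and 30.4%. Fgf4, the ligand made by pluripotent cells, rose in Mettl3 KO (0.51 ± 0.09, adjusted p = 4.01e-06), and Spry2, a feedback inhibitor of FGF signalling, fell in triple KO (-0.42 ± 0.11, adjusted p = 0.00485) and in Mettl3 KO (-1.001 ± 0.12, adjusted p = 2.71e-10). Pdgfa, a ligand of Pdgfra, fell in Mettl3 KO (-0.46 ± 0.09, adjusted p = 0.000179), and Pdgfc, another, rose in triple KO (0.47 ± 0.13, adjusted p = 0.0219) and Mettl3 KO (0.79 ± 0.12, adjusted p = 4.05e-06). Nanog, the pluripotency factor, rose in triple KO (0.71 ± 0.07, adjusted p = 3.15e-14) and Mettl3 KO (0.35 ± 0.07, adjusted p = 3.97e-05). It was 1 of 4 and of 5 of the 11 pluripotency markers called higher. In each line 3 were called lower, beside 25.1% and 30.4% of all tested genes called in either direction. Klf2 rose in Mettl3 KO (0.88 ± 0.08, adjusted p = 2.83e-15), where Tbx3 fell (-0.72 ± 0.10, adjusted p = 1.06e-08). Klf4 fell in triple KO (-0.31 ± 0.07, adjusted p = 0.00172).

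By likeness of log2 levels over the 12 libraries, among 10513 genes averaging 4 or more in log2 CPM, Lama1 was closest to Eif2ak2 (Pearson r = 0.97), Sept1 (0.97) and Cabp1 (0.96), and Gata4 to Fitm2 (0.90), Sfmbt2 (0.90) and Crabp1 (0.87). These values describe 12 libraries that share 6 groups. Between Lama1 and Gata4 themselves r was 0.16.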

How the data were processed

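Counts per gene and library were deposited by the authors as whole numbers, and 12 stem cell columns of such counts were used. The submitters' processing notes name mm10 with STAR 2.4.2a, CASAVA 1.8.2, DESeq2 and cutadapt. Poly(A) RNA was made into ScriptSeq v2 libraries, per the labels' protocols; for the counter, its strand setting and the annotation, nothing is stated in these sources. The table holds genes with at least 6 counts in some library. The log2 fold changes and adjusted p-values deposited by the authors were used only where named, and 24 other per-sample columns were not used.

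All 12 libraries entered 1 fit: edgeR 4.0.16 (under R 4.3.3) with TMM, filterByExpr at a minimum count of 10 and the robust quasi-likelihood F test. DESeq2 1.42.0 was the alternative. The fit was tested on simulated counts with more spread than counting error, so that test does not cover replicates that differ by less. The members and gene lists were chosen with earlier results of these data known. Text names all members, the perturbed genes, from each list at most 4 called genes per comparison with the smallest p, and the 3 genes most like Lama1 and Gata4. Counting intervals are exact, at 95%, and cover counting error only. Alternatives were RLE scaling, other filters, DESeq2, the compared groups alone, replicate letter as a block, a quasi-dispersion of at least 1, and leaving out each library. Positions and exon lengths came from GENCODE M21 and promoters from RefSeq. Python 3.11.15 read sequences, and matplotlib 3.10.9 drew figures.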

Additional observations from a re-analysis of the deposited data

Results flagged for a closer look

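Gata4, Col4a1 and Col4a2 were flagged because the triple KO and the Mettl3 KO, set against the same WT libraries, differed from each other by a direct test in edgeR. The log2 difference of triple KO over Mettl3 KO was 1.78 for Gata4 (adjusted p = 0.0122), 1.72 for Col4a1 (adjusted p = 0.0299) and 1.01 for Col4a2 (adjusted p = 0.0396), and both triple KO libraries lay above both Mettl3 KO libraries for each gene. Col4a1 was tested only because it passed the low-count filter through the triple KO, so its p supports nothing. DESeq2 called none of the 3. Lama1 was not flagged, at -0.40 (adjusted p = 0.388).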

How the results depend on the processing

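Lama1 was called lower in triple KO and Mettl3 KO over WT under every alternative run. Counts of called members moved as follows. With DESeq2, 1 was called in Mettl3 KO over WT, 0 in triple KO over Mettl3 KO and 0 in Ythdf3 KO. Without the filter there were 4 in Mettl3 KO and 3 in triple KO over WT, and with 5 CPM in 2 libraries, a looser filter here, 4 and 2. Leaving out a library lowered the number of members called in triple KO over Mettl3 KO and in Ythdf3 KO. In triple KO over WT that number stayed or rose. These fits leave 1 library in a group and called fewer genes over the whole table in every comparison. Calls lost in them are thus not particular to the members. Over all genes DESeq2 called 684 in triple KO, 1156 in Mettl3 KO, 52, 10 and 25 in Ythdf1, Ythdf2 and Ythdf3 KO, and 613 in triple KO over Mettl3 KO, against 2996, 3630, 412, 228, 340 and 2272 by edgeR.

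Differences between replicates A and B had correlations of -0.00097 to 0.12 between groups, 1 of 15 over 0.1. Replicates differed by less than counting error, so these values cannot show whether the letters paired the samples. The fit with the letter as a replicate block left the members called at 1, 2, 0, 0, 1 and 3 in the same comparisons. Over all genes that fit called 3008 in triple KO.

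Directions turned only among uncalled values. Triple KO over Mettl3 KO for Dab2 was 0.0031 in the compared groups alone and 0.015 by DESeq2, with -0.19 to 0.19 when a library was left out. Leaving out a library also gave log2 ranges of -0.45 to 0.18 and -1.06 to 0.15 for Col4a1 in Ythdf2 KO and Ythdf3 KO, -0.12 to 0.85 and -0.25 to 0.25 for Col4a2 in Ythdf1 KO and Ythdf3 KO, and -0.28 to 0.70 for Dab2 in Ythdf1 KO. Gata4 ran from -0.23 to 0.12 in triple KO over WT, Gata6 from -2.28 to 0.072 in Mettl3 KO, -0.55 to 0.75 in Ythdf1 KO and -0.40 to 0.90 in Ythdf2 KO, Pdgfra from -0.55 to 0.29 in Mettl3 KO and -0.53 to 0.31 in Ythdf2 KO, and Sox17 from -0.11 to 0.086 in triple KO and -0.061 to 0.11 in Ythdf1 KO. The cause was not tested. At 0 to 14 counts per library, smaller differences in Gata6, Sox17, Pdgfra and Dab2 were not detectable at this depth.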
